A study of Mus musculus with 24 samples.

Results

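Nuclear RNA of hippocampal glia was compared between mice labelled Mutyh-/- and wild-type (WT) mice. The members are the 6 libraries of NeuN- nuclei that carry these genotypes in their labels, 3 per genotype, of the 24 libraries in the series, and the 31863 genes that passed a filter on low counts of the 55254 genes in the NeuN- count table. All animals were male, of the C57BL/6N background, untreated, housed in standard home cages and 6 months old. Hippocampal nuclei were fixed, stained for NeuN, a protein of neuronal nuclei (gene Rbfox3), and sorted by flow cytometry, and the nuclei without the stain were taken as the glial fraction. No restriction of the knockout to glia is stated, and nuclei of several animals were pooled. The other NeuN- libraries of the table, 3 of Ogg1-/- and 3 of the double knockout (DKO, which lacks both glycosylases), entered the fit to estimate the spread but are not compared here for their own sake. Whether libraries of one genotype came from separate pools is not clear from the sources used here. The p-values measure the spread between libraries of a genotype, taken over all 4 genotypes of the fit, and this spread may be partly technical. Fewer cells of a type and less RNA per cell cannot be told apart in these sums over many nuclei.

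Mutyh encodes an adenine DNA glycosylase of base excision repair. When 8-oxoguanine, a common product of oxidation, is copied, adenine can be placed opposite it, and Mutyh removes that adenine so that the pair can be repaired, whereas Ogg1 removes the oxidized guanine itself. Glia of the hippocampus include oligodendrocytes, which make myelin, their precursors, astrocytes, which take up glutamate and supply neurons with lactate and lipids, and microglia, the resident immune cells.

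Total counts ranged from 64114727 to 92409869 per WT library and from 77240297 to 81859063 per library labelled Mutyh-/-. Levels are given as TMM-normalized CPM, counts scaled to a common library size of 1 M. Levels of glial markers are given as a description, without their NeuN+ values, so they do not test the glial label. Summed over 16 genes of mature oligodendrocytes, the level was between 9520 and 10480 CPM in WT and between 8621 and 10310 CPM in Mutyh-/-, and the sums were at least 4283 CPM for astrocytes, 2588 CPM for oligodendrocyte precursors and 1198 CPM for microglia in every library. Rbfox3 was not absent, with 87.5, 101 and 106 CPM in WT and 85.8, 80.6 and 95.5 CPM in Mutyh-/-, against means of 1347 and 1530 CPM in the separately scaled NeuN+ table. One library stood apart. On the first principal component of the 6 libraries, which held 34.1% of the variance, the WT libraries lay at -31.0, -29.7 and -17.4 and Mutyh-/- replicates 1 and 2 at 37.8 and 42.1, but Mutyh-/- replicate 3 at -1.90. The number of DEGs and the gene lists that moved most with this library are given with and without it.

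The targeted gene was measured first. Mutyh, on chromosome 4 of GRCm38 from 116807723 to 116819440, had 3.07, 2.85 and 2.60 CPM in WT (281, 188 and 209 counts) and 10.2, 10.5 and 10.1 CPM in the libraries labelled Mutyh-/- (786, 835 and 787 counts). All 3 libraries labelled Mutyh-/- were thus higher than all WT libraries, against the direction that the label of a knockout gives. The log2 fold change was 1.85 (standard error, SE, 0.11, adjusted p = 4.22e-05). Adjusted p-values here and below are from the quasi-likelihood test of edgeR, corrected over all tested genes by the Benjamini-Hochberg method. Counts per gene do not show which exons were read, so a transcript that lacks part of the gene would still be counted, and the libraries are called by their labels throughout. Ogg1, the partner glycosylase, had 7.0, 6.9 and 6.21 CPM in WT and 6.45, 6.56 and 7.09 CPM in Mutyh-/-, and the groups overlapped. Of the 27 genes of base excision repair, Mutyh was the only one that passed the test. The DNA ligase gene Lig1 (log2 fold change -0.28, unadjusted p = 0.0178, adjusted p = 0.268) and the scaffold gene Xrcc1 (log2 fold change 0.12, unadjusted p = 0.0282, adjusted p = 0.303) had the next smallest p, and the median of the list was -0.02, against -0.01 for all genes tested.

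A gene was called differentially expressed (DEG) where the adjusted p was below 0.05 and the log2 fold change beyond 0.5 in either direction. Of the 31863 genes, 87 were DEGs (0.273%), of which 53 were higher (0.166%) and 34 lower (0.107%) in Mutyh-/- than in WT. For each of the 87, all 3 libraries of one genotype lay above all 3 of the other, as they did for 9.02% of all tested genes in the higher and 10.2% in the lower direction. The number of DEGs depended on the libraries. It was 31, 36 and 35 without WT replicate 1, 2 or 3, and 36 and 55 without Mutyh-/- replicate 1 or 2, but 435 (168 higher and 267 lower) without Mutyh-/- replicate 3. All 87 DEGs kept their direction in the 6 fits. Since the 3 and 3 libraries of each did not overlap, leaving out 1 could hardly turn it. Of the 87, 24 (19 higher and 5 lower) were DEGs in all 6. Another 24, among them Actg1, Inpp5a, Tshz3, Zfp69, Mpp7, H1f0, Cpt1b, Ifnk, Myo1g and H2-K2, were DEGs in only 1 of these fits, that without Mutyh-/- replicate 3. Positions were known for 84 DEGs, and 48 of these lay in 8 groups of neighbours, with gaps of at most 1 Mb between members. Chromosome 4 held 27 DEGs, chromosome 14 held 19 and chromosome X held 4. Only 35 of the 87 were protein-coding genes, 22 higher and 13 lower. Many others overlapped a coding gene or were copies of one, and for 29 of the 79 DEGs with a testable transcript at least 50% of their 100-base windows occurred also in another gene. Such counts are uncertain, since the strand setting, the handling of overlapping genes and that of reads with several alignments are not given in the sources used here.

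**Figure D1:**
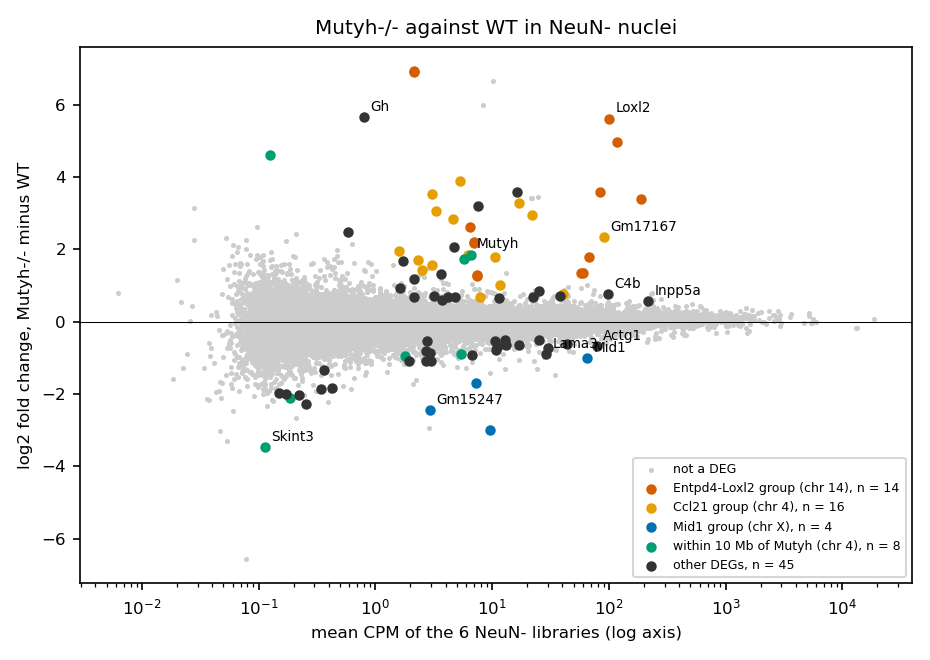
Each point is a gene tested in NeuN- nuclei, with its mean level on the horizontal axis (CPM on a log axis) and its log2 fold change, Mutyh-/- minus WT, on the vertical axis. The 87 DEGs are coloured by their place in the genome, and the highest DEGs are the neighbours on chromosome 14, with log2 fold changes up to 6.92.

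The block of chromosome 14 around Loxl2 held the largest changes. All 14 DEGs between positions 69241848 and 69695834, a stretch of 454.0 kb, were higher in Mutyh-/-, with a median log2 fold change of 2.41. Loxl2, which encodes a lysyl oxidase that cross-links collagen, had 3.69, 4.54 and 3.96 CPM in WT and 211, 145 and 238 CPM in Mutyh-/-. The difference was far larger than the spread within WT or within Mutyh-/- (log2 fold change 5.61, SE 0.91, adjusted p = 0.0213). The SE and p also take in the spread of the Ogg1-/- and DKO libraries of the fit. For Loxl2 a DKO library was far above the others, as given below. Slc25a37, the gene of mitoferrin, which carries iron into mitochondria, had 29.7, 28.9 and 31.2 CPM in WT and 108, 86.0 and 118 CPM in Mutyh-/- (log2 fold change 1.80, SE 0.19, adjusted p = 0.00137). It lies at one edge of the block and Loxl2 at the other, and Slc25a37 was a DEG in all 6 fits that left out a library, whereas Loxl2 was one in 2. Between them lie Entpd4 and Entpd4b, which encode nucleoside diphosphatases of the Golgi apparatus and lysosomes. Entpd4 had 36.6, 33.0 and 29.0 CPM in WT and 75.5, 59.0 and 116 CPM in Mutyh-/- (log2 fold change 1.35, adjusted p = 0.0171), and its copy Entpd4b had a log2 fold change of 1.36 (adjusted p = 0.0163). All transcript windows of both occurred also in another gene, so their reads cannot be told apart. The predicted coding gene Gm16867 (log2 fold change 3.38, adjusted p = 0.00723) and the pseudogene Gm21451, which overlaps it on the other strand, had the same order of libraries. Gm21451 had 6.60, 7.83 and 7.36 CPM in WT and 241, 167 and 270 CPM in Mutyh-/- (log2 fold change 4.96, adjusted p = 0.0157). Replicate 2 was the lowest and replicate 3 the highest of the Mutyh-/- libraries for each of Loxl2, Slc25a37, Entpd4, Gm16867 and Gm21451. The remaining members were antisense or unclassified transcripts inside these genes, among them Gm27222 inside Slc25a37 (log2 fold change 2.62, adjusted p = 0.00222) and Gm38378 and Gm37513, which had at most 0.0655 CPM in any WT library and between 2.47 and 6.26 CPM in Mutyh-/- (log2 fold changes of 6.91 and 6.92). Gm20236, Gm37094 and the antisense genes Gm27221, Gm27176 and Gm27177 had log2 fold changes between 1.27 and 3.58.

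**Figure D2:**
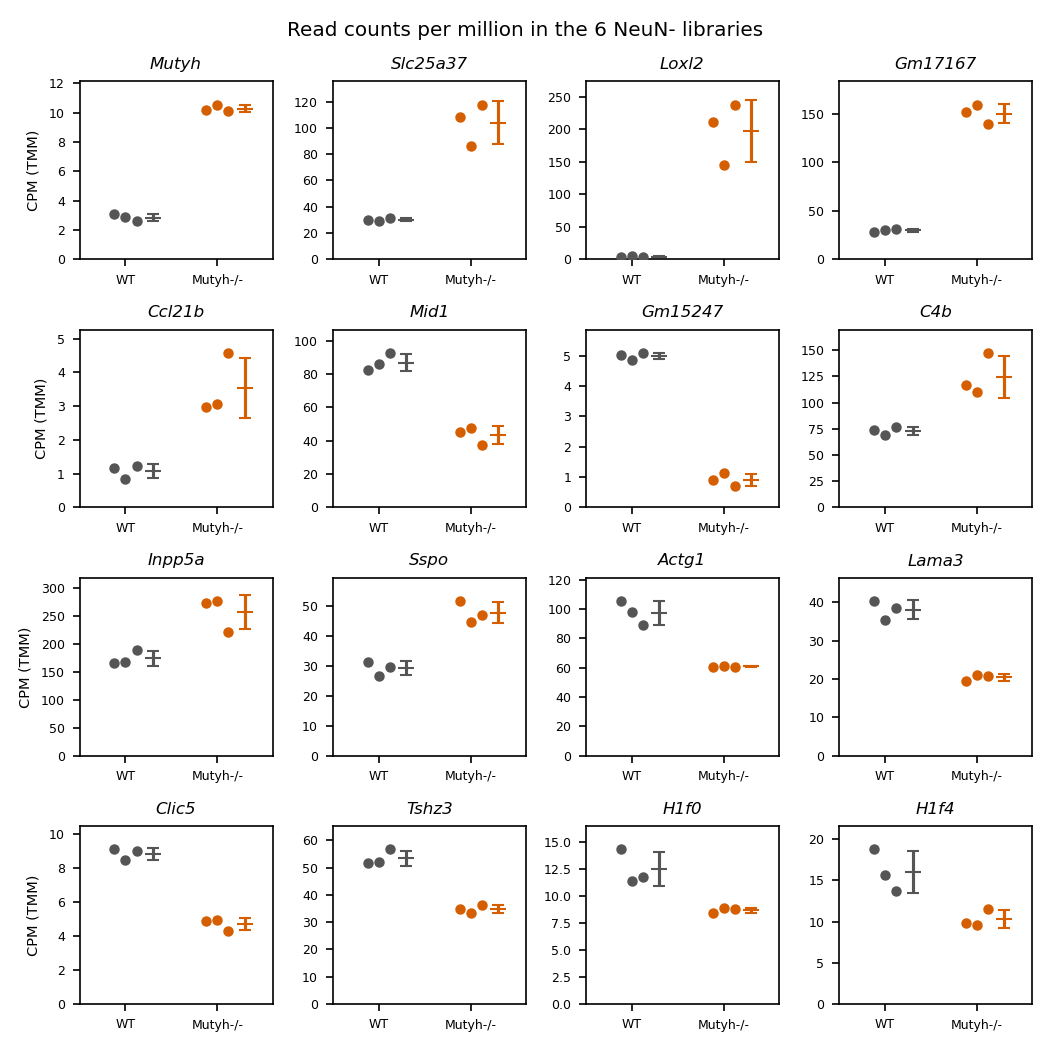
Points give the level of each library (TMM-normalized CPM, axes from 0) for 16 DEGs in WT and Mutyh-/- NeuN- nuclei, with the mean as a dash and the SD as a bar (n = 3). In each panel the 3 libraries of one genotype lie above the 3 of the other, from Loxl2 with 3.69 to 4.54 against 145 to 238 CPM to Inpp5a with 165 to 190 against 223 to 277 CPM.

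The 16 DEGs of the Ccl21 region on chromosome 4, between positions 41809083 and 42612860, were also all higher in Mutyh-/- (median log2 fold change 1.90). This stretch of 803.8 kb holds several near-identical copies of chemokine genes and pseudogenes between 74.19 and 75.00 Mb from Mutyh. Ccl21b, a chemokine that guides dendritic cells and T cells through the receptor Ccr7, had 1.17, 0.85 and 1.23 CPM in WT and 2.99, 3.05 and 4.58 CPM in Mutyh-/- (log2 fold change 1.70, SE 0.25, adjusted p = 0.0121). Its copy Ccl21d had 0.677, 0.516 and 0.785 CPM in WT and 2.19, 2.12 and 3.37 CPM in Mutyh-/- (log2 fold change 1.94, adjusted p = 0.00723). Ccl21a, the third copy, which lies outside the stretch at 42772860 to 42773991, did not pass the test, with 2.34, 1.81 and 2.86 CPM in WT and 2.00, 2.26 and 2.76 CPM in Mutyh-/-. Genes without a known protein in the same stretch were higher too. Gm17167, a processed transcript that overlaps the annotated span of Ccl21b on the other strand, had 28.5, 29.7 and 31.7 CPM in WT and 152, 160 and 140 CPM in Mutyh-/- (log2 fold change 2.33, SE 0.22, adjusted p = 8.04e-04). Gm17081, a pseudogene, rose from 2.85, 3.05 and 3.55 CPM to 29.4, 30.1 and 32.1 CPM (log2 fold change 3.28, adjusted p = 9.38e-04). For Gm17167 and Gm17081 the groups were several times further apart than the libraries within them. The coding copies Gm10600 (log2 fold change 3.90), Gm3893 (3.06), Gm13304 (1.58), Gm10591 (1.44) and Gm21093 (0.67) and the pseudogenes Gm13303 (1.85), Gm5859 (1.79) and Gm13301 (2.94) were DEGs too, as were Gm10601 (3.54), Gm13302 (2.84), Gm3883 (1.01) and the antisense gene Gm13307 (0.76). The share of windows that occurred in another gene was 51.5% for Gm17167 and 100% for Ccl21b, so the division of reads among the copies is uncertain. Gm10599, Gm50470 and BX666061.1, whose position was not found by symbol, had log2 fold changes of 3.59, 3.21 and 2.07.

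Mid1 and transcripts of its opposite strand were lower in Mutyh-/-. Mid1, on chromosome X from 169685199 to 170005736, encodes a ubiquitin ligase that binds microtubules and is known in mice to span the boundary of the pseudoautosomal region. It had 82.3, 85.8 and 92.7 CPM in WT and 45.2, 47.6 and 37.6 CPM in Mutyh-/- (log2 fold change -1.0, SE 0.15, adjusted p = 0.0128). Gm15247, an antisense gene inside it, had 5.01, 4.87 and 5.09 CPM in WT and 0.892, 1.12 and 0.718 CPM in Mutyh-/- (log2 fold change -2.45, SE 0.17, adjusted p = 7.19e-05), the lower DEG with the smallest p. Gm15726 (log2 fold change -2.99, adjusted p = 0.0213) and G530011O06Rik (log2 fold change -1.69, adjusted p = 1.38e-04) lie in the same stretch of the opposite strand. All 4 had separate libraries in WT and Mutyh-/-, and Gm15247 and G530011O06Rik were DEGs in all 6 fits that left out a library, whereas Mid1 was one in 2.

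Of the genes of the major histocompatibility region of chromosome 17, 3 DEGs between 33974659 and 34823464 were higher in Mutyh-/-. C4b encodes complement component 4, which is cleaved to tag surfaces for removal by phagocytes. It had 73.9, 68.9 and 76.4 CPM in WT and 117, 110 and 147 CPM in Mutyh-/- (log2 fold change 0.77, SE 0.10, adjusted p = 0.00613) and was a DEG in all 6 fits that left out a library. The paralog C4a had 16.7, 15.7 and 18.5 CPM in WT and 26.3, 24 and 32 CPM in Mutyh-/- (log2 fold change 0.69, adjusted p = 0.0200). The order of the libraries was the same in both genes, and their reads cannot be fully told apart, since 15.2% of the windows of C4b and 13.1% of those of C4a occurred in another gene. H2-K2, a class I pseudogene, had a log2 fold change of 0.69 (adjusted p = 0.0197). Values for the class I genes H2-K1 (log2 fold change 0.16, adjusted p = 0.400) and H2-D1 (0.08, adjusted p = 0.743) and for the complement gene C1qa (0.20, adjusted p = 0.398) did not pass the test.

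Other groups of neighbours were small. On chromosome 14, between 22507174 and 23094571, 3 noncoding transcripts that overlap Lrmda, a gene of melanocyte differentiation, changed in different directions. The antisense gene Gm10248, which runs past the end of Lrmda, had 0.961, 0.774 and 0.697 CPM in WT and 2.43, 2.84 and 2.60 CPM in Mutyh-/- (log2 fold change 1.69, SE 0.14, adjusted p = 4.09e-04). The antisense gene 4930405A10Rik was lower, with 13.4, 14.2 and 13.6 CPM in WT and 8.65, 7.60 and 9.22 CPM in Mutyh-/- (log2 fold change -0.69, adjusted p = 0.00251), as was the intronic Gm47601 (log2 fold change -1.10, adjusted p = 0.00480). Lrmda itself, which had between 545 and 588 CPM in WT, had a log2 fold change of -0.03 (adjusted p = 0.884). On chromosome 7, Tshz3, which encodes a zinc finger and homeobox transcription factor, had 51.6, 51.9 and 56.6 CPM in WT and 34.9, 33.4 and 36.2 CPM in Mutyh-/- (log2 fold change -0.61, SE 0.10, adjusted p = 0.0216). Gm38340 (log2 fold change -0.88) and E230020A03Rik (-0.82), unclassified transcripts on the strand of Tshz3 and within it, were lower with it. Actg1, the gene of cytoplasmic gamma-actin on chromosome 11, had 105, 97.9 and 88.9 CPM in WT and 60.4, 61.5 and 60.8 CPM in Mutyh-/- (log2 fold change -0.68, SE 0.11, adjusted p = 0.0243). The annotated miRNA gene Gm23419 lies within Actg1 on the same strand, and its log2 fold change of -0.64 cannot be told apart from that of the host.

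Neighbours of the targeted gene were counted by distance. Mutyh was the only DEG among 68 tested genes within 1 Mb (1.47%), and 4 of 178 genes within 5 Mb (2.25%), 8 of 361 within 10 Mb (2.22%) and 10 of 692 within 20 Mb (1.45%) were DEGs, against 0.273% of all tested genes. Each of these counts and shares includes Mutyh itself. The 8 within 10 Mb were 3 higher and 5 lower. Calr4, a calreticulin-family gene at 7.55 Mb, had 2.23, 2.29 and 2.54 CPM in WT and 1.28, 1.26 and 1.1 CPM in Mutyh-/- (log2 fold change -0.95, adjusted p = 0.0106). Zfp69, a zinc finger gene at 4.11 Mb, had 13.8, 13.3 and 14.5 CPM in WT and 8.60, 8.59 and 8.96 CPM in Mutyh-/- (log2 fold change -0.67, adjusted p = 0.0197). Rhbdl2, which encodes a rhomboid protease, lies at 6.97 Mb and had 8.11, 6.31 and 6.92 CPM in WT and 3.93, 3.55 and 3.99 CPM in Mutyh-/- (log2 fold change -0.90, adjusted p = 0.00445). In all 3 genes the Mutyh-/- libraries lay below the WT libraries. The long noncoding RNA gene 1700057H15Rik at 7.59 Mb was higher, with 3.32, 2.37 and 2.22 CPM in WT and 8.43, 9.37 and 8.54 CPM in Mutyh-/- (log2 fold change 1.73, adjusted p = 9.38e-04), and so was 1700021L23Rik at 7.48 Mb, which had at most 0.0152 CPM in WT and between 0.177 and 0.308 CPM in Mutyh-/- (log2 fold change 4.59). Skint3, of a family that supports T cells of the skin, and the antisense gene Gm12853 were lower at levels under 0.34 CPM (log2 fold changes of -3.47 and -2.12). Beyond 10 Mb, the pseudogene Gm12715 (log2 fold change -0.74, adjusted p = 0.00794) and the noncoding gene Gm12729 (-2.28, adjusted p = 0.0110) were lower. The nearest neighbours of Mutyh gave log2 fold changes of 0.13 for Toe1 (adjusted p = 0.381), 0.84 for Hpdl (adjusted p = 0.194), -0.02 for Tesk2 (adjusted p = 0.942) and -0.22 for Zswim5 (adjusted p = 0.180).

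**Figure D3:**
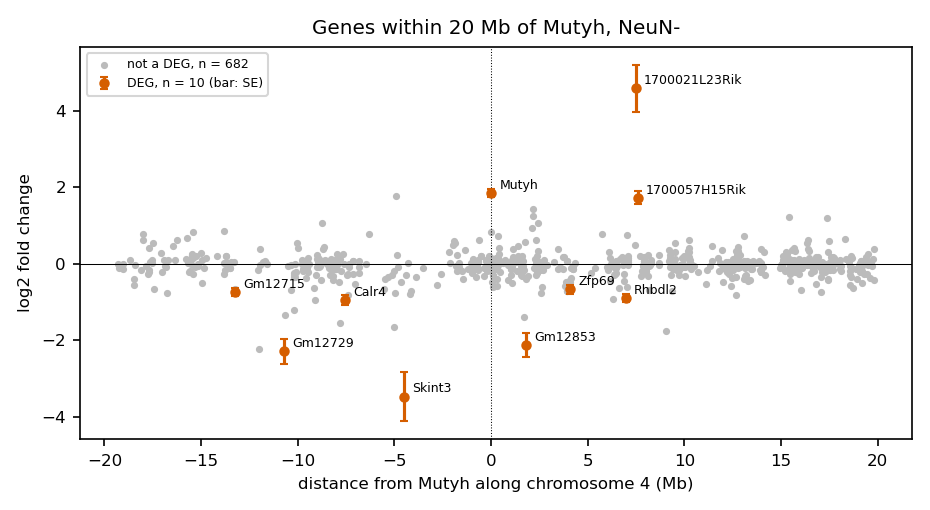
Each point is a tested gene of chromosome 4, with its distance from Mutyh in Mb on the horizontal axis and its log2 fold change, Mutyh-/- minus WT in NeuN- nuclei, on the vertical axis. Within 20 Mb, 10 of 692 tested genes were DEGs, and apart from Mutyh no DEG lay within 1 Mb.

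Coding genes with a known role were found among the higher DEGs without a neighbour. Inpp5a, which ends calcium signalling by removing a phosphate from inositol trisphosphate, had 165, 169 and 190 CPM in WT and 273, 277 and 223 CPM in Mutyh-/- (log2 fold change 0.56, SE 0.10, adjusted p = 0.0347). Mutyh-/- replicate 3 was the lowest of its group but stayed above WT. Sspo, which encodes the secreted giant protein SCO-spondin of the brain ventricles, had 31.2, 26.7 and 29.6 CPM in WT and 51.5, 44.5 and 46.8 CPM in Mutyh-/- (log2 fold change 0.71, SE 0.09, adjusted p = 0.00434). Along with Mutyh and the pseudogene Ndufs5-ps (log2 fold change 1.33, adjusted p = 0.00222), Sspo was a DEG without a neighbour that passed in all 6 fits that left out a library. Mpp7, a scaffold protein of cell junctions, had 15.6, 18.9 and 19.8 CPM in WT and 34.4, 28.9 and 35.1 CPM in Mutyh-/- (log2 fold change 0.86, adjusted p = 0.0469). Genes of lower level were Cpt1b, which imports fatty acids into mitochondria (log2 fold change 0.67), Ifnk, an interferon (0.67), Myo1g, a myosin of blood-derived cells (0.60), and the coiled-coil gene Ccdc158 (0.71).

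Lama3, Clic5 and linker histone genes were among the lower DEGs without a neighbour. Lama3, a laminin chain of basement membranes, had 40.3, 35.4 and 38.5 CPM in WT and 19.4, 21.1 and 20.7 CPM in Mutyh-/- (log2 fold change -0.90, SE 0.14, adjusted p = 0.0145). Clic5, a chloride intracellular channel protein, had 9.08, 8.43 and 8.97 CPM in WT and 4.86, 4.92 and 4.29 CPM in Mutyh-/- (log2 fold change -0.91, SE 0.13, adjusted p = 0.0125). In both genes every Mutyh-/- library was well below the lowest WT library. Of the 6 fits that left out a library, Lama3 was a DEG in 2 and Clic5 in 3. The linker histone genes H1f4 and H1f0, whose proteins bind DNA between nucleosomes, were lower by a smaller amount. H1f4 had 18.8, 15.6 and 13.7 CPM in WT and 9.83, 9.55 and 11.5 CPM in Mutyh-/- (log2 fold change -0.64, adjusted p = 0.0220), and H1f0 had 14.3, 11.4 and 11.8 CPM against 8.45, 8.89 and 8.78 CPM (log2 fold change -0.52, adjusted p = 0.0469). Of the same 6 fits, H1f4 was a DEG in 2 and H1f0 in 1. Gm14406, a predicted coding gene with 87.9% of its windows in other genes, had a log2 fold change of -1.09, and the noncoding gene Gm26843 one of -0.78.

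Noncoding genes and pseudogenes were also among the DEGs without a neighbour. Gm12576, a noncoding gene of chromosome 11, had 0.229, 0.167 and 0.125 CPM in WT and 0.957, 0.757 and 1.24 CPM in Mutyh-/- (log2 fold change 2.48, SE 0.34, adjusted p = 0.00723). B230220B15Rik, which overlaps the complex I assembly gene Ndufaf2 on the other strand, had 1.63, 1.3 and 1.03 CPM in WT and 3.3, 3.14 and 2.56 CPM in Mutyh-/- (log2 fold change 1.18, adjusted p = 0.0131). Both were separate between the genotypes, as were the pseudogenes Gm45777 (log2 fold change 0.92) and Gm5709 (0.66). Gm9750, on the strand opposite to Asrgl1, was lower, with 30, 30.1 and 28.8 CPM in WT and 19.9, 21.6 and 20.8 CPM in Mutyh-/- (log2 fold change -0.51, adjusted p = 0.0197). Antisense genes of the coding genes Npas3 (1700060O08Rik, log2 fold change -0.50), Fhit (Fhitos, -0.55), Far2 (Far2os2, -1.08) and Lrrc31 (Gm15462, -1.83) were lower too. The noncoding genes Gm30806, Gm29880 and Gm14120 had at most 0.607 CPM in any library and log2 fold changes of -1.87, -2.0 and -2.04.

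Gh and Mir181a-1 were DEGs of very low level. Gh, the gene of growth hormone, had 0, 1 and 6 counts in WT and 281, 23 and 61 counts in Mutyh-/-, which gave 3.63, 0.290 and 0.782 CPM in Mutyh-/- (adjusted p = 0.0393). The libraries labelled Mutyh-/- were all higher but differed more than 10-fold among themselves. The miRNA gene Mir181a-1, on chromosome 1 from 137966455 to 137966541, had 0.273, 0.212 and 0.224 CPM in WT and 0.0776, 0.0505 and 0.0513 CPM in Mutyh-/- (log2 fold change -1.96, SE 0.34, adjusted p = 0.0347). It lies within the noncoding genes A430106G13Rik and Gm4258 on the same strand, so these reads are of the nuclear precursor or its host and not of the mature miRNA. The mature sequence in RefSeq (GRCm38.p6) is shown with its seed, bases 2 to 8, in capitals, since the same mature miRNA is also encoded by Mir181a-2 on chromosome 2.
mmu-miR-181a-5p: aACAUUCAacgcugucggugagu

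Genes of heat shock and protein folding encode chaperones, which keep proteins folded and are induced by stress. At an unadjusted p under 0.05, 11 of the 15 listed genes were higher and 0 lower, against 6.78% and 6.90% of all tested genes, and 0 of the 15 were DEGs. All 15 had a log2 fold change above 0, with a median of 0.62. Hspa1a, the inducible chaperone of the Hsp70 family, had 2.42, 3.16 and 5.78 CPM in WT and 52.4, 56.7 and 11.7 CPM in Mutyh-/- (log2 fold change 3.41, SE 0.88, adjusted p = 0.163). Its twin Hspa1b had 2.46, 3.19 and 6.77 CPM in WT and 59.5, 61.5 and 14.2 CPM in Mutyh-/- (log2 fold change 3.45, SE 0.91, adjusted p = 0.170). Replicates 1 and 2 of Mutyh-/- were about alike and replicate 3 lay much nearer to WT, although above it. Hspa5, the chaperone of the endoplasmic reticulum, had 33.9, 40.6 and 44.8 CPM in WT and 90.3, 89.5 and 47.6 CPM in Mutyh-/- (log2 fold change 0.93, adjusted p = 0.184). Bag3, a co-chaperone of autophagy, had 16.7, 16.3 and 19.9 CPM in WT and 26.2, 30.5 and 21.3 CPM in Mutyh-/- (log2 fold change 0.56, adjusted p = 0.173). Summed over the list, the level was 830, 873 and 1082 CPM in WT and 1695, 1777 and 1059 CPM in Mutyh-/-, and replicate 3 lay within the WT range (exact permutation test, two-sided, p = 0.2, where the smallest p that 3 against 3 libraries allow is 0.1). Without Mutyh-/- replicate 3, when 435 of 32219 tested genes were DEGs, Bag3, Hspa1a, Hspa1b and Hspa5 were among them. The median of the list was then 0.80. Without Mutyh-/- replicate 1 or 2, 0 of the 15 were DEGs and 7 were higher at an unadjusted p under 0.05, as were 7 without WT replicate 1. Of all tested genes, 4.01%, 4.43% and 5.04% were higher at that p in these fits, in the same order.

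The promoters of Hspa1a and Hspa1b are shown because their levels had the same pattern across the libraries. The sequences are the 250 bases before the annotated start in RefSeq (GRCm38.p6), on the minus strand at chr17:34972157-34972406 and chr17:34959239-34959488, and 247 of the 250 bases are identical. Capitals mark GAANNTTC, the core of a heat shock element, which is its own reverse complement and starts 104 bases before the annotated start in both. It occurs in 6.69% of the 32851 promoters searched and in 6 of the 11 listed heat shock genes with a promoter sequence. A match is a description of letters and says nothing of binding.
Hspa1a: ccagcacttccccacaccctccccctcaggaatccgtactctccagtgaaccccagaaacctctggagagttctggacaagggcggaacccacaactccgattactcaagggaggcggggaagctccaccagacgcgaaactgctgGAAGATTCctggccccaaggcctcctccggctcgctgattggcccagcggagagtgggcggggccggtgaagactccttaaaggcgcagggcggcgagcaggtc
Hspa1b: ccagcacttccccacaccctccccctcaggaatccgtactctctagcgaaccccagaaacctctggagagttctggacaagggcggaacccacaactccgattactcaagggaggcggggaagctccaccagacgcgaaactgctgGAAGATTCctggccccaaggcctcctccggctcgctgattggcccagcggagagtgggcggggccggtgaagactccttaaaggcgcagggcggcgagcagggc

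Hspa5 and Hsp90b1, the chaperones of the endoplasmic reticulum in the list, hold another motif. The endoplasmic reticulum stress element, searched on both strands as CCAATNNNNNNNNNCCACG, occurs in 0.113% of the promoters and in these 2 of the 11 listed genes. Hsp90b1 had 121, 110 and 132 CPM in WT and 205, 192 and 140 CPM in Mutyh-/- (log2 fold change 0.56, adjusted p = 0.216). The matches lie at chr2:34772025-34772043 on the plus strand for Hspa5, and at chr10:86705638-86705656 on the minus strand and chr10:86705533-86705551 on the plus strand for Hsp90b1, with the fixed letters in capitals.
Hspa5: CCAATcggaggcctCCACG
Hsp90b1, first: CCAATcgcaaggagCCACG
Hsp90b1, second: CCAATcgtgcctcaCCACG

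Genes of cholesterol synthesis and uptake, which glia use to supply myelin and neurons with sterol, had smaller values, mostly of the opposite sign. Of 22 listed genes, 12 were lower and 2 higher at an unadjusted p under 0.05, against 6.9% and 6.78% of all tested genes, 0 were DEGs, and the median log2 fold change was -0.16. The number lower was 5 and 6 without Mutyh-/- replicate 1 or 2, 15 without replicate 3, and 13, 8 and 9 without WT replicate 1, 2 or 3. Of all tested genes, 4.28%, 4.7%, 9.35%, 4.59%, 4.58% and 6.54% were lower at that p in these fits, in the same order. Hmgcs1, which encodes the synthase before the rate-limiting step, had 33.9, 39.2 and 37.3 CPM in WT and 26.9, 27.5 and 30.5 CPM in Mutyh-/- (log2 fold change -0.38, SE 0.07, adjusted p = 0.0426). It passed the adjusted p but not the fold limit of a DEG. Insig1, a sensor that holds back sterol synthesis, had 27.4, 27.6 and 25.6 CPM in WT and 21.7, 22.2 and 22.4 CPM in Mutyh-/- (log2 fold change -0.28, adjusted p = 0.158). Without Mutyh-/- replicate 3, when 435 of 32219 tested genes were DEGs, Hsd17b7 and Mvd were among the lower DEGs and the median was -0.22. The 250 bases before the annotated start of Hmgcs1, at chr13:119690101-119690350 on the plus strand, hold TCACNCCAC, a sterol regulatory element, shown in capitals and starting 137 bases before the start. This motif, searched on both strands, occurs in 1.05% of the promoters and in 1 of the 16 listed sterol genes with a promoter sequence.
Hmgcs1: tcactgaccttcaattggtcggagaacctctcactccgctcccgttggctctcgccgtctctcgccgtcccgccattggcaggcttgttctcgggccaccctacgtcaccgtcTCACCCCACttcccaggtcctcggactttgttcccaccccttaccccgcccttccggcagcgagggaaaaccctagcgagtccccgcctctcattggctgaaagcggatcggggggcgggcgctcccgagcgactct

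**Figure D4:**
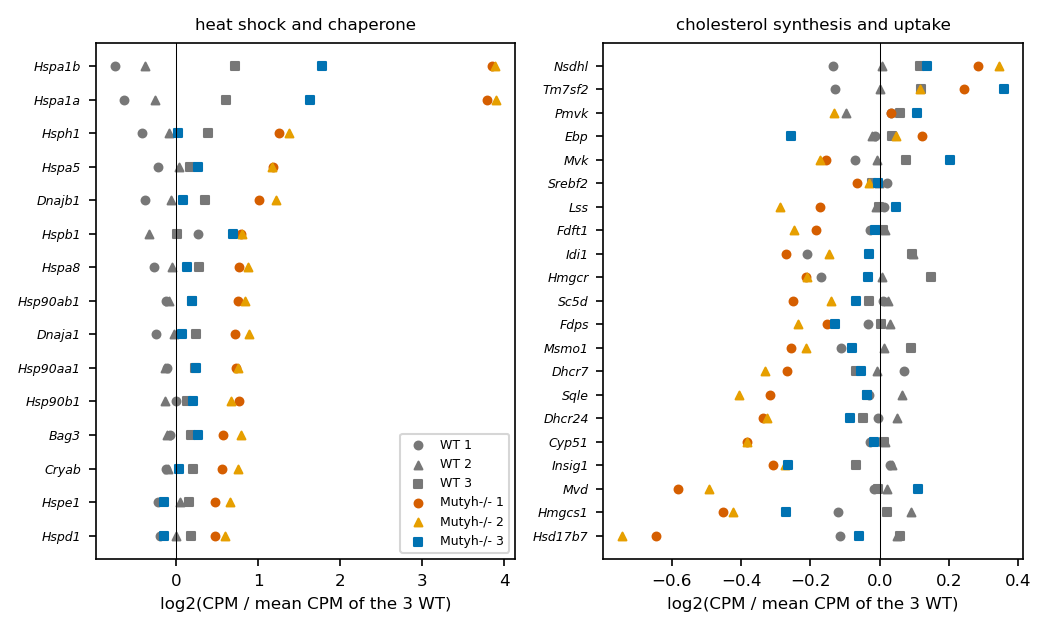
Each row is a gene of the heat shock list (left) or the cholesterol list (right), and each point a library at the log2 of its CPM over the mean of the 3 WT libraries, in grey for WT and in colour for Mutyh-/-. Mutyh-/- replicates 1 and 2 were high for the chaperones and low for most sterol genes, and replicate 3 was near WT for many of both, as in Hspa5 with 90.3 and 89.5 against 47.6 CPM.

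No marker of a cell type was a DEG. The medians were -0.03 for mature oligodendrocytes, -0.01 for their precursors, 0.04 for astrocytes and 0.07 for microglia. Gfap, the intermediate filament of astrocytes, had 37.9, 37.7 and 45.7 CPM in WT and 48.1, 53.5 and 49.5 CPM in Mutyh-/- (log2 fold change 0.32, adjusted p = 0.216), and Cnp, an enzyme of myelin, had 412, 386 and 353 CPM in WT and 311, 326 and 248 CPM in Mutyh-/- (log2 fold change -0.38, adjusted p = 0.247). Of the astrocyte markers 8 of 15 were above 0, and Ntsr2 had a log2 fold change of -0.21. Astrocyte sums were 4322, 4427 and 5102 CPM in WT and 5132, 5650 and 4283 CPM in Mutyh-/-, which overlapped (exact permutation test, two-sided, p = 0.6). Of the mature oligodendrocyte markers 7 of 16 were above 0. Markers of leptomeningeal fibroblasts had log2 fold changes above 0 in 8 of 8 genes (median 0.41), and their summed level was between 86.5 and 108 CPM in WT and between 118 and 152 CPM in Mutyh-/- (exact permutation test, two-sided, p = 0.1, the smallest possible). Markers of choroid plexus and ependyma were above 0 in 4 of 11 genes, with sums between 57.7 and 89.5 CPM in WT and between 43.9 and 57.2 CPM in Mutyh-/- (exact permutation test, two-sided, p = 0.1). Of these genes, 2 were higher and 0 lower at an unadjusted p under 0.05, so that the lower sum was not shared by all members. The ependymal genes Ccdc153 and Tmem212 had log2 fold changes of 0.91 and 0.89. The median of the list was -0.35, and -0.039 without WT replicate 3. Ttr, which defines the choroid plexus, had 27.5, 29.1 and 48.2 CPM in WT and 16.1, 13.2 and 12.8 CPM in Mutyh-/- (adjusted p = 0.588), and Dcn, which defines the fibroblasts, had 2.1, 3.2 and 2.75 CPM in WT and 3.83, 3.07 and 3.70 CPM in Mutyh-/- (adjusted p = 0.407). The part of these cells in the changes of Lama3, Clic5, Sspo or any other DEG was not tested. Neuronal markers had log2 fold changes below 0 in 15 of 16 genes, with a median of -0.14 and sums from 1804 to 2018 CPM in WT and from 1627 to 1917 CPM in Mutyh-/-, which overlapped (exact permutation test, two-sided, p = 0.2). Grin1, a subunit of the NMDA receptor, had 32.2, 36.9 and 35.5 CPM in WT and 24.9, 24.8 and 29.6 CPM in Mutyh-/- (log2 fold change -0.40, adjusted p = 0.117). Endothelial markers had a median of -0.13 and interneuron markers one of -0.23, with 3 of 14 and 4 of 12 genes lower at an unadjusted p under 0.05, against 6.9% of all tested genes. Interneuron sums were 321, 308 and 337 CPM in WT and 356, 300 and 361 CPM in Mutyh-/-, which overlapped (exact permutation test, two-sided, p = 0.5). The mean interneuron sum was thus not lower in Mutyh-/-, unlike the median. Endothelial sums were 137, 153 and 145 CPM in WT and 137, 138 and 122 CPM in Mutyh-/-, which overlapped (exact permutation test, two-sided, p = 0.2). With 1 library left out, the number lower was between 2 and 5 for endothelial and between 1 and 4 for interneuron markers, lowest without Mutyh-/- replicate 3 and without WT replicate 3. In these fits between 4.28% and 9.35% of all tested genes were lower at that p.

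In the remaining lists, Entpd4 was the only DEG. It belongs to the 10 genes listed as differing between C57BL/6 substrains, the median of which was 0.01, and Nnt, a mitochondrial enzyme gene that is defective in C57BL/6J, had 59.6, 58.4 and 56.5 CPM in WT and 54.2, 50.3 and 54.2 CPM in Mutyh-/- (adjusted p = 0.278). Cytosolic ribosomal protein genes had a median of -0.14, and 75 of 78 were below 0, 13 of them at an unadjusted p under 0.05, against 6.9% of all tested genes. Without Mutyh-/- replicate 3 the median was -0.060 and 4 were lower, without Mutyh-/- replicate 2 they were -0.18 and 23, and without WT replicate 1 or 2 the number lower was 6. Of all tested genes, 9.35%, 4.7%, 4.59% and 4.58% were lower at that p in these fits, in the same order. Their summed level was between 1265 and 1284 CPM in WT and between 1103 and 1235 CPM in Mutyh-/-. Glucocorticoid-responsive genes had a median of 0.25, with 4 of 14 higher and 1 lower at an unadjusted p under 0.05, against 6.78% and 6.9% of all tested genes. Without Mutyh-/- replicate 1 or WT replicate 1, 1 gene was higher, against 4.01% or 5.04% of all tested genes, and the median was 0.16 or 0.15. Among them Plin4, a coat protein of lipid droplets, had 23.5, 25.3 and 51.5 CPM in WT and 103, 89.9 and 75.0 CPM in Mutyh-/- (log2 fold change 1.42, SE 0.38, adjusted p = 0.173). The clock gene Nr1d1, which encodes a transcriptional repressor, had 62.5, 63.9 and 57.2 CPM in WT and 40.4, 41.7 and 36.5 CPM in Mutyh-/- (log2 fold change -0.63, adjusted p = 0.169), whereas the median over 18 clock genes was -0.02, with -0.11 without Mutyh-/- replicate 2 and 0.11 without replicate 3. Medians were -0.04 for oxidized nucleotide and mismatch repair, 0.02 for p53 targets, -0.05 for antioxidant genes, -0.06 for the respiratory chain, -0.04 for glycolysis (0.049 without Mutyh-/- replicate 3), 0.07 for immediate early genes, -0.01 for interferon-response and for cAMP genes, 0.01 for polycomb repressive complex 2, -0.03 for DNA methylation enzymes and for ion channels of glia, and -0.08 for glutamate and GABA receptors. The study's text names some genes in NeuN- nuclei without a genotype, after pathways that it reports as most enriched in DKO. Their log2 fold changes in Mutyh-/- were -0.22 for Grm7 (adjusted p = 0.269), -0.38 for Bdnf (adjusted p = 0.524), -0.14 for Npr3 (adjusted p = 0.867) and 0.43 for Wnt6 (adjusted p = 0.761), and none passed the test in Mutyh-/-. Grm7 passed it in Ogg1-/- (log2 fold change -0.87, adjusted p = 2.19e-04) and in DKO (-0.585, adjusted p = 0.0129), whereas Bdnf, Npr3 and Wnt6 passed in neither.

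The same genes were read in the NeuN- libraries of Ogg1-/- and DKO, which share the WT libraries with Mutyh-/-, so the values are given side by side only. Mutyh had 3.56, 3.51 and 3.19 CPM in Ogg1-/- and 7.21, 8.75 and 10.1 CPM in DKO, near WT and near the libraries labelled Mutyh-/-, respectively. Loxl2 had 3.85, 5.95 and 7.17 CPM in Ogg1-/- and 4.42, 5.31 and 68.4 CPM in DKO, so that 1 DKO library, replicate 3, was far above the other two. The same library was the highest of DKO for Slc25a37, with 30.3, 32.2 and 54.5 CPM, and for Gm17167, with 34.2, 32.7 and 65.9 CPM. Gm17167 had 539, 585 and 456 CPM in Ogg1-/-, above all Mutyh-/- libraries. Gm15247 was low in every knockout, with 0.933, 0.690 and 0.840 CPM in Ogg1-/- and 1.1, 1.2 and 0.875 CPM in DKO. C4b had 95.8, 94.3 and 87.0 CPM in Ogg1-/- and 77.6, 93.7 and 84.5 CPM in DKO, between the WT and the Mutyh-/- libraries.

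The NeuN+ libraries of WT and Mutyh-/- gave values from other libraries, which may come from the same animals. The labels put NeuN+ and NeuN- on different sequencing lanes, so fraction and lane cannot be told apart. Of the 87 DEGs, 77 were tested in NeuN+, and 74 of these had the same direction there. Of the 77, 42 were DEGs in NeuN+, all in the same direction, where 0.435% of the 28491 genes tested in both fractions were DEGs. The shares differed by place in the genome. Of 47 DEGs in groups of neighbours, 36 were DEGs in NeuN+ too, but of 27 DEGs without a neighbour 3 were. Loxl2 had 0.594, 0.734 and 0.445 CPM in WT NeuN+ and 126, 91.8 and 136 CPM in Mutyh-/- NeuN+ (log2 fold change 7.63, adjusted p = 0.00786), and Gm17167 had 101.5, 91.6 and 110 CPM against 395, 415 and 363 CPM (log2 fold change 1.95, adjusted p = 5.25e-06). Mutyh-/- replicate 2 was the lowest for Loxl2 in this fraction also. C4b had 2.05, 1.93 and 1.55 CPM in WT NeuN+ and 1.93, 1.6 and 1.89 CPM in Mutyh-/- NeuN+ (log2 fold change -0.03, adjusted p = 0.977), and it was opposite in direction along with Gm10248 (-0.70, adjusted p = 0.404) and Zfp69 (0.17, adjusted p = 0.245). Its paralog C4a was higher in NeuN+ as in NeuN-, with 2.47, 3.04 and 2.73 CPM in WT NeuN+ and 4.62, 4.45 and 3.30 CPM in Mutyh-/- NeuN+. Inpp5a (log2 fold change 0.08, adjusted p = 0.463) and Sspo (0.21, adjusted p = 0.792) did not pass the test in NeuN+. The heat shock list had a median of 0.19 in NeuN+, and Hspa5 had a log2 fold change of 0.89 there (unadjusted p = 9.38e-04). The median of the cholesterol list was 0.04.

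**Figure D5:**
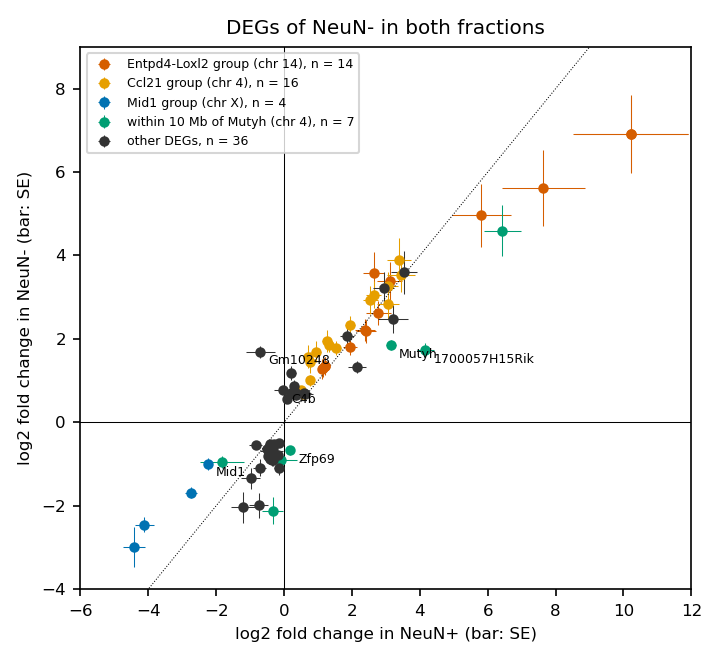
The log2 fold change of Mutyh-/- minus WT in NeuN- nuclei (vertical axis) is drawn against that in NeuN+ nuclei (horizontal axis) for the 77 DEGs of NeuN- that were tested in both, with bars of 1 standard error. Of these points, 74 lie in the quadrants of equal sign, and Mid1 and Mutyh lie further from 0 in NeuN+, at -2.25 and 3.15, than in NeuN-, at -1.0 and 1.85.

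Whether the effect of the genotype differed between the fractions was tested with an interaction term over 33523 genes and all 24 libraries, and 7 genes passed an adjusted p under 0.05 (0.0209%). Of the 7, 4 were DEGs of NeuN-. Mid1 was lowered less in NeuN- than in NeuN+, where it had 63.6, 74.0 and 68.0 CPM in WT and 14.8, 14.9 and 13.5 CPM in Mutyh-/- (difference 1.26 on the log2 scale, SE 0.17, adjusted p = 0.00565). Mutyh rose less in NeuN-, with 1.05, 1.18 and 1.18 CPM in WT NeuN+ and 10.6, 10.7 and 9.06 CPM in NeuN+ labelled Mutyh-/- (difference -1.28, SE 0.19, adjusted p = 0.0110). The noncoding gene 1700057H15Rik also rose less in NeuN-, with 1.49, 1.26 and 1.70 CPM in WT NeuN+ and 29.2, 31.4 and 19.0 CPM in Mutyh-/- NeuN+ (difference -2.42, SE 0.32, adjusted p = 0.00553). Zfp69 was lower in NeuN- and had 9.0, 7.73 and 8.73 CPM in WT NeuN+ and 9.32, 9.99 and 9.40 CPM in Mutyh-/- NeuN+ (difference -0.83, SE 0.13, adjusted p = 0.0200). The other three were not DEGs in NeuN-. Itga9, an integrin that binds matrix proteins such as tenascin, had 138, 135 and 143 CPM in WT NeuN- and 198, 192 and 163 CPM in Mutyh-/- NeuN- (log2 fold change 0.41, adjusted p = 0.158), against a log2 fold change of -0.45 in NeuN+ (adjusted p = 0.0360). The transcription factor gene Maf had 39.3, 34.1 and 33.3 CPM in WT NeuN- and 41.8, 38.6 and 39.5 CPM in Mutyh-/- NeuN- (log2 fold change 0.17), against -0.37 in NeuN+, and the noncoding gene 9130204K15Rik had log2 fold changes of 0.14 in NeuN- and 0.99 in NeuN+.

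The DEGs were also sorted by the fraction in which they are more abundant, with the libraries of Ogg1-/- and DKO that did not enter the comparison. With an adjusted p below 0.05 and a log2 difference beyond 1 in either direction, 30 of the 87 DEGs were higher in NeuN- (34.5%, against 24.9% of all tested genes) and 26 higher in NeuN+ (29.9%, against 18.0%). The 30 genes classed as higher in NeuN- were 12 higher and 18 lower in Mutyh-/-, and the 26 classed as higher in NeuN+ were 21 higher and 5 lower. Some DEGs also differed from WT in Ogg1-/- or DKO, so a class drawn from those libraries need not hold in WT. Mid1 was classed as higher in NeuN- (log2 difference 1.81). Its WT means were 87.0 CPM in NeuN- and 68.6 CPM in the separately scaled NeuN+ table. Neighbours in one block are not independent, so these shares are given without a test.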

How the data were processed

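Per the labels and the methods of the study, nuclear RNA was extracted with a kit for fixed tissue, and stranded total RNA libraries were aligned to GRCm38 with HISAT2 2.1.0 and counted per gene of the Ensembl annotation with featureCounts. The authors deposited raw counts, 1 column per library, without normalization. Strand, overlap and multimapping settings are not given in the sources used here. Counts were analysed in R 4.3.3 with edgeR 4.0.16 (filterByExpr, TMM factors, quasi-likelihood test with Benjamini-Hochberg adjustment), with the 12 NeuN- libraries of 4 genotypes in one fit. The biological coefficient of variation was 0.124, total counts per library are given above, and counts limit the precision of genes of low level. Any pair of libraries within a genotype had different counts in at least 98.0% of genes. Marker sums were compared by exact permutation. Positions came from GENCODE vM21 by symbol, or else from RefSeq. The scripts were tested on simulated data. Alternatives were DESeq2 1.42.0, the likelihood ratio test, other size factors, filters and thresholds, the 6 libraries alone, the replicate block and fits without 1 library.

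The genes and lists were chosen with earlier results of these data known. Named are Mutyh, Ogg1, in each direction the 12 DEGs of smallest p, the protein-coding DEGs reported here, every DEG within 10 Mb of Mutyh, genes of the interaction, genes the study's text names, defining markers and up to 4 genes per list by p. Others, such as Gm21451, Gm38378, Gm37513, Ccl21a and Mir181a-1, were chosen after their values were seen. Results for a few genes are not reported here.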

Additional observations from a re-analysis of the deposited data

Results flagged for a closer look

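The effect of the genotype differed between the fractions in 7 genes, by the interaction term of a fit of all 24 libraries (adjusted p under 0.05 by edgeR's quasi-likelihood test). Effects in NeuN- minus those in NeuN+, on the log2 scale, were -2.42 for 1700057H15Rik, -1.28 for Mutyh, -0.84 for 9130204K15Rik and -0.83 for Zfp69. They were 1.26 for Mid1, 0.87 for Itga9 and 0.55 for Maf. Of these, Mid1, Mutyh and 1700057H15Rik moved in the same direction in both fractions with unequal size, whereas Itga9, Maf and Zfp69 had effects of opposite sign. Since the fractions were on different lanes, fraction and lane cannot be told apart. All 7 also passed an adjusted p under 0.05 with the likelihood ratio test. They passed as well with the same-numbered NeuN- and NeuN+ libraries of a genotype as a block, which the main fit did not pair.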

How the results depend on the processing

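The number of DEGs depended on the test and the libraries. The 87 DEGs kept their direction in each of the 14 alternatives in which they were tested. Their libraries did not overlap between the genotypes, so this direction had little room to change and is no separate support. DESeq2 gave 219 DEGs (113 higher and 106 lower, 71 of them shared) and the likelihood ratio test 239 (116 higher and 123 lower, 87 shared). The 6 libraries alone gave 59 lower DEGs, 120 in all (71 shared). An absolute log2 fold change above 1 left 55 DEGs, 16 of them lower. Leaving out 1 library gave between 31 and 435 DEGs, between 23 and 168 higher and between 5 and 267 lower, and the upper end, 435, was the fit without Mutyh-/- replicate 3 (87 shared). Other size factors gave 86 and 85, no filter 114 (84 shared) and at least 10 counts in each library 70 (70 shared). Of the 87, 24 were kept only without Mutyh-/- replicate 3 among these 6 fits. The log2 fold change of Mutyh stayed past the threshold in each alternative. Medians of several lists moved when 1 library was left out, within -0.0049 to 0.065 for p53 targets, -0.41 to -0.039 for choroid plexus and ependyma, -0.27 to -0.082 for interneurons, 0.011 to 0.22 for immediate early genes, -0.036 to -0.0033 for cAMP genes, -0.043 to 0.015 for DNA methylation enzymes -0.060 to -0.016 for ion channels of glia, -0.18 to -0.060 for ribosomal proteins, -0.11 to 0.11 for clock genes, -0.11 to 0.049 for glycolysis and -0.075 to 0.027 for mature oligodendrocytes. The sign also turned within small medians of other lists. Within 5 Mb of Mutyh there were 4 DEGs, against 8 within 10 Mb, Mutyh itself included in both. With an absolute log2 difference above 2 between fractions, 24 DEGs differed between them, against 56. The interaction passed for 64 genes by the likelihood ratio test. The sign turned for Npr3 (-0.39 to 0.0046 with 1 library left out, above 0 without Mutyh-/- replicate 1) and for Wnt6 (-0.022 to 0.75, below 0 without Mutyh-/- replicate 3). The cause of these shifts was not tested. Counts per gene and a spread estimated from 3 libraries a genotype limit what can be called in genes of low level.

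The labels number the replicates in every genotype. With the replicate number as a block there were 83 DEGs, 74 of them shared, and the interaction passed for 31 genes. Deviations of same-numbered WT and Mutyh-/- libraries from their group means correlated at 0.04, 0.04 and -0.07, which does not pair them. Not every library correlated best with its own number. Replicate 3 of both genotypes and Mutyh-/- replicate 1 did not.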
